A study of Ictidomys tridecemlineatus with 31 samples.

Results

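Kruppel-like factors (KLFs) are transcription factors that bind GC-rich and CACCC elements through zinc fingers at their carboxy-terminal end. Their other ends differ and recruit either activators such as p300 or repressors such as CtBP and the Sin3 complex. In the kidney and its vessels members of the family are known for responses to shear stress, glucocorticoids, transforming growth factor β (TGFβ) and tissue injury. Members were chosen by gene symbol, each had 1 row, and 10 of the 12863 genes in the table of expressed kidney genes were taken, KLF2, Klf3, Klf4, Klf5, Klf6, Klf9, Klf10, Klf11, Klf13 and Klf15.

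Poly(A) RNA was sequenced from perfused kidneys of 31 13-lined ground squirrels (Ictidomys tridecemlineatus), 17 females and 14 males of a captive colony or a supplier, 1 kidney sample per animal. The labels name no genotype, drug treatment, age or strain. Summer active (SA) animals were homeothermic and fattening in August. The 4 hibernation states were sampled within the torpor-arousal cycle in a cold, dark room and were named from body temperature. Entrance (Ent) animals were cooling into torpor, early arousing (EAr) animals were still cold at the start of rewarming, late arousing (LAr) animals were further along in rewarming, and interbout aroused (IBA) animals were briefly warm between bouts. Spring dark (SpD) animals had ended torpor and were homeothermic but were still kept in the dark room. The study left out the LAr animal K113 and the SA animals K136 and K137 from its tests. K113 and K137 are shown apart here, and K136 is not analysed here. The tests therefore rest on 29 animals, 4 in SA and 5 in each other state. Libraries were made in 2 experiments, and LAr, EAr and SA occur only in experiment 2.

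Values are rlog values, a log2 scale of normalized counts, after correction for experiment by the authors. The scale pulls low counts toward the gene's mean, so that differences of weakly expressed genes are understated. It is not scaled by transcript length, and levels are therefore compared across animals and never between genes. The depth of each library is unknown. The median over genes lay between 9.74 and 9.88 in the 31 animals. The kidney label was checked against segment markers. All 5 proximal tubule markers were in the table, with mean levels of 14.2 to 15.2 over the states, and none of 5 adrenal markers was. Differences are from limma with terms for state, sex and experiment, as fitted log2 differences with their standard error (SE), and q is the Benjamini-Hochberg value over all 12863 genes. A gene was called at q under 0.001, the limit of the study. Fitted differences adjust for sex and experiment and so can depart from a difference of plain means. The authors' correction left every gene with the same mean in the 2 experiments, although SA, EAr and LAr occur only in experiment 2. Plain levels, overlaps, ranks, medians and correlations can therefore carry an offset between experiments that falls unevenly on the states. The fitted difference of experiment 2 from experiment 1 ran from -0.46 log2 for Klf10 to 0.21 for Klf9 (lowest q = 0.508).

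Kidney levels of Klf10 and Klf11 changed across the 6 states. KLF2 was also called, but as a description only. By plain means Klf10 was highest in late arousal, Klf11 was high throughout the hibernation states, and KLF2 was highest in the spring and summer states and lowest in late arousal. For KLF2, LAr did not differ from EAr or Ent at the threshold. The 3 called of 10 members stand beside 9.34% of all genes called by the same F test (limma). In the deposited values KLF2 met the minimum level for the table only in SA, a state in which it was high, so its values are a description. Of the other 9 members 2 were called. At q under 0.05 there were 6 of 10, beside 46.1% of all genes. The range of state means had a median of 0.64 log2 over the 10 members and of 0.32 over all genes.

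**Figure D1:**
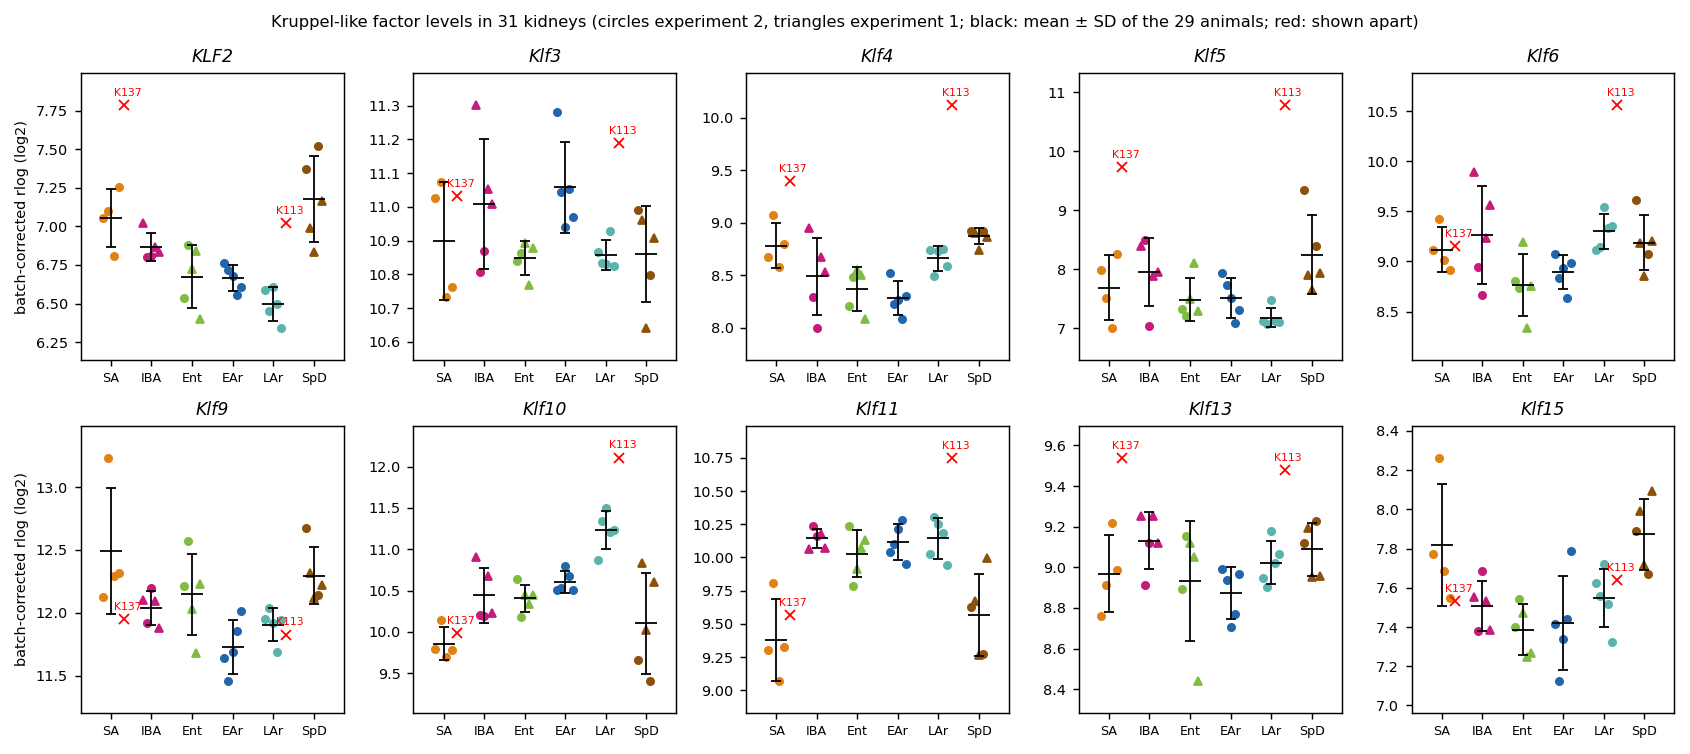
Level of each KLF gene (batch-corrected rlog, log2, vertical axis, scaled per gene) in each of 31 kidneys by state, with experiment 1 as triangles and experiment 2 as circles. Bars give the mean ± SD of the 29 tested animals, and red crosses give K113 and K137, which lie far above their groups for Klf5 at 10.79 and 9.74.

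Klf10 and Klf11 encode the TGFβ-inducible early gene products, repressors that recruit Sin3a, and Klf10 is also known as a circadian clock output. Klf10 levels in LAr were 10.87, 11.20, 11.23, 11.34 and 11.50, and those in EAr were 10.50, 10.51, 10.53, 10.68 and 10.79. Ent animals had 10.18, 10.33, 10.44, 10.44 and 10.63, and IBA animals had 10.19, 10.21, 10.22, 10.68 and 10.90. Klf10 in SA was 9.70, 9.78, 9.79 and 10.15, against 9.40, 9.66, 10.02, 10.60 and 10.84 in SpD. Late arousal was the high state, with 4 of its 5 animals above every other tested animal. Its lowest animal, K109 of experiment 2, lay just under the highest IBA animal, K1 of experiment 1. SpD was the most variable state, and its difference of means from IBA was -0.12 within experiment 1 and -0.67 within experiment 2. Means were 11.23 ± 0.23 in LAr and 10.60 ± 0.13 in EAr (SD, n = 5 each), and 9.85 ± 0.20 in SA (SD, n = 4). The difference across states had q = 2.38e-05, the lowest of the family.

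Of the 7 pairs of states the study compared, the interbout and late arousal pair gave the only call among the KLFs. Klf10 was lower in IBA than in LAr (fitted difference -1.07 log2, SE 0.19, 95% interval -1.46 to -0.67, q = 7.08e-04, limma), a 2.09-fold difference. This is 1 of 10 members, beside 1.43% of all genes called in this pair. The 2 IBA animals of experiment 2 had 10.19 and 10.21, below all 5 LAr animals. The call was lost when all states were fitted within experiment 2 alone, with 2 IBA animals, where the difference was -1.05 with q = 0.0017. Without the term for experiment the call was lost too, with q = 0.0127. It was also lost when any of 14 single animals was left out, with a highest q of 0.00378 without IBA animal K104. Against EAr, Klf10 in LAr was higher by 0.62 log2 (95% interval 0.27 to 0.97, q = 0.148) and did not pass, although the groups did not overlap. Against Ent the fitted difference was 1.10 log2 (q = 0.00213), also without overlap and without a call.

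Among the other pairs of states, Klf10 was lower in SA than in LAr (difference -1.37 log2, q = 1.22e-05) and lower in SpD than in LAr (difference -1.40 log2, q = 3.58e-05). These pairs share the LAr animals. They held 2 calls of 10 members each, beside 5.47% and 2.01% of all genes. The other call of the SpD and LAr pair was KLF2, which is a description. In the order of plain means, LAr, EAr, IBA, Ent, SpD and SA, no neighbouring states of Klf10 differed at the threshold. The LAr and EAr neighbours were the only ones without overlap.

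Klf11 was higher in the hibernation states than in SA and SpD, and no pair of states within the torpor-arousal cycle was called. IBA animals had 10.06, 10.07, 10.16, 10.18 and 10.24, and Ent animals had 9.79, 9.92, 10.07, 10.13 and 10.23. EAr animals had 9.95, 10.04, 10.11, 10.22 and 10.28, and LAr animals had 9.95, 10.03, 10.18, 10.26 and 10.31. Outside the cycle, SA animals had 9.07, 9.30, 9.33 and 9.80, and SpD animals had 9.27, 9.27, 9.63, 9.67 and 9.998. The 20 hibernation animals lay within 9.79 to 10.31, and of the 9 active animals only SA animal K139 and SpD animal K9 reached that range. Means were 10.14 ± 0.073 in IBA and 9.57 ± 0.31 in SpD (SD, n = 5), and 9.38 ± 0.31 in SA (SD, n = 4). The F test gave q = 1.32e-04.

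Klf11 was lower in SA than in LAr (difference -0.76 log2, q = 3.02e-04) and lower in SA than in EAr (difference -0.75 log2, q = 4.39e-04), 1 call of 10 members beside 4.49% of all genes in the latter pair. IBA exceeded SA by 0.73 log2 (SE 0.15, q = 0.00152), and SpD differed from IBA by -0.58 log2 (SE 0.13, q = 0.00531). Both missed the threshold, and neither pair overlapped. The SpD and IBA difference of means was -0.46 within experiment 1 and -0.75 within experiment 2, without overlap in either. The q of the IBA and SA difference of Klf11 was 4.23e-04 without SA animal K139, 8.65e-04 without SpD animal K84 and 3.72e-04 without SpD animal K9, and that of the SpD and IBA difference was 8.54e-04 without K9.

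KLF2 and Klf4 are known in endothelium as factors induced by laminar flow, where KLF2 acts on the eNOS gene Nos3 and the thrombomodulin gene Thbd, and Klf4 also directs epithelial differentiation. KLF2 levels in SpD were 6.83, 6.99, 7.17, 7.37 and 7.52, and those in SA were 6.81, 7.05, 7.10 and 7.26. IBA animals had 6.80, 6.81, 6.83, 6.86 and 7.02, and Ent animals had 6.40, 6.54, 6.72, 6.84 and 6.88. EAr animals had 6.55, 6.61, 6.68, 6.72 and 6.77, and LAr animals had 6.34, 6.45, 6.50, 6.59 and 6.61. All 5 LAr animals lay below every IBA, SA and SpD animal. KLF2 was named in the table by a match to the human gene and had the identifier ENSSTOG00000021161. It is close to the expression floor of the table, for which 4 or more animals of some state had to reach a value of 7. In the deposited values only SA met that floor, and only with K137 counted, a state in which KLF2 was high. The authors applied the floor before the correction for experiment, so the state that admitted KLF2 is not known for certain. The other 9 members met the floor in all 6 states of the 31 animals.

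As a description, KLF2 was called across states with q = 2.65e-04 (limma). SpD exceeded LAr by 0.76 log2 (SE 0.12, q = 2.36e-04), the other member called in that pair. SA exceeded LAr by 0.56 log2 (q = 0.0012), and IBA exceeded LAr by 0.45 log2 (q = 0.0149). Neither passed, and neither pair overlapped. LAr differed from EAr by -0.17 log2 (q = 0.750) and from Ent by -0.26 log2 (q = 0.428), both with overlap and without a call. The call across states was lost with K113 and K137 included (q = 0.0027) and without SpD animal K130 or K84 (highest q = 0.0011). The difference of means between SpD and IBA was 0.091 within experiment 1 and 0.64 within experiment 2.

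All 7 endothelial markers searched for were in the table. Their mean level was 11.35 in SpD (range 10.98 to 11.85), 11.11 in SA (10.79 to 11.26), 11.06 in IBA (10.87 to 11.40), 10.94 in Ent (10.66 to 11.26), 10.85 in EAr (10.67 to 10.96) and 10.82 in LAr (10.65 to 10.96), which is the order of the KLF2 means. Across states 1 of the 7 was called, Plvap, a gene of fenestrated endothelium (q = 7.06e-04), beside 9.34% of all genes. By season 5 of the 7 were lower in hibernation at q under 0.05, beside 16.8% of all genes. At q under 0.001 there was 1, again Plvap, at -0.49 log2 (q = 3.46e-04), beside 5.29% of all genes. The part of these markers in the KLF2 values was not tested. In whole tissue, fewer cells of a type and less RNA per cell cannot be told apart.

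Klf4 levels in SpD were 8.74, 8.86, 8.90, 8.92 and 8.92, and those in SA were 8.58, 8.67, 8.80 and 9.07. LAr animals had 8.49, 8.59, 8.73, 8.74 and 8.75, and IBA animals had 7.99, 8.29, 8.53, 8.67 and 8.95. Ent animals had 8.08, 8.21, 8.49, 8.50 and 8.55, and EAr animals had 8.08, 8.23, 8.26, 8.31 and 8.52. SpD animals were high and close together, and every EAr and Ent animal lay below every SA and SpD animal. The F test gave q = 0.00324, which does not pass. SA exceeded EAr by 0.50 log2 (q = 0.00922), SpD exceeded Ent by 0.51 log2 (q = 0.0142), and LAr exceeded EAr by 0.38 log2 (q = 0.33).

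Klf9 and Klf15 are induced by glucocorticoids, and Klf15 is known as a regulator of amino acid breakdown. Klf15 levels in SpD were 7.67, 7.72, 7.89, 7.99 and 8.09, and those in SA were 7.55, 7.68, 7.77 and 8.26. LAr animals had 7.32, 7.52, 7.56, 7.62 and 7.72, and IBA animals had 7.38, 7.39, 7.53, 7.55 and 7.69. EAr animals had 7.12, 7.34, 7.41, 7.44 and 7.79, and Ent animals had 7.25, 7.27, 7.40, 7.47 and 7.54. The seasons overlapped, and SA animal K139 was the highest of all. Across states q was 0.0103, and no pair was called. SpD exceeded Ent by 0.49 log2 (95% interval 0.23 to 0.74, q = 0.0164).

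Klf9 levels in SA were 12.12, 12.29, 12.32 and 13.23, and those in SpD were 12.12, 12.14, 12.22, 12.32 and 12.67. Ent animals had 11.68, 12.03, 12.21, 12.23 and 12.57, and IBA animals had 11.88, 11.92, 12.09, 12.10 and 12.20. LAr animals had 11.68, 11.92, 11.94, 11.95 and 12.04, and EAr animals had 11.45, 11.64, 11.69, 11.85 and 12.02. All EAr animals lay below all SA and all SpD animals, and the top value again belonged to K139. SA exceeded EAr by 0.77 log2 (95% interval 0.41 to 1.12, q = 0.0025) and SpD exceeded EAr by 0.70 log2 (q = 0.0104), without calls. The F test gave q = 0.00668.

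Klf5 and Klf6 are activators known from epithelial growth and from early responses to injury, and Klf5 is expressed in the collecting duct. Klf5 levels in SpD were 7.65, 7.90, 7.93, 8.40 and 9.34, and those in IBA were 7.03, 7.88, 7.95, 8.40 and 8.49. SA animals had 6.99, 7.51, 7.98 and 8.25, and EAr animals had 7.08, 7.31, 7.51, 7.73 and 7.94. Ent animals had 7.21, 7.28, 7.32, 7.50 and 8.10, and LAr animals had 7.07, 7.11, 7.12, 7.12 and 7.47. Late arousal was low and tight apart from K112, whereas SpD spread over more than 1 log2 with K130 on top. SpD exceeded LAr by 1.13 log2 (95% interval 0.46 to 1.80, q = 0.0184), and the F test gave q = 0.0615. The difference of Klf5 means between SpD and IBA was -0.25 within experiment 1 and 1.11 within experiment 2.

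The mean of 3 inner medulla markers, all in the table, was highest in the same 3 animals as Klf5. It reached its top values in K137 at 13.42, K113 at 12.80, K130 at 12.26 and IBA animal K104 at 11.83. The Klf5 levels of the first 3 of these were 9.74, 10.79 and 9.34. Over the 29 animals this mean was 9.11 in LAr (9.01 to 9.20), 9.93 in SA (8.94 to 10.69), 9.97 in EAr (8.82 to 10.75), 10.07 in Ent (8.84 to 10.73), 10.18 in IBA (9.05 to 11.83) and 10.83 in SpD (9.78 to 12.26). Its part in the Klf5 values was not tested.

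Klf6 levels in LAr were 9.12, 9.14, 9.34, 9.36 and 9.54, and those in EAr were 8.63, 8.84, 8.94, 8.98 and 9.07. IBA animals had 8.66, 8.95, 9.23, 9.57 and 9.89, and Ent animals had 8.33, 8.73, 8.75, 8.80 and 9.20. The LAr animals lay above all EAr animals, with a fitted difference of 0.43 log2 (95% interval 0.069 to 0.80, q = 0.504), and IBA was the widest state. SA animals had 8.91, 9.01, 9.11 and 9.43, and SpD animals had 8.85, 9.08, 9.18, 9.20 and 9.61. The F test gave q = 0.0505. Between SpD and IBA the difference of Klf6 means was -0.48 within experiment 1 and 0.54 within experiment 2, of opposite sign.

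Klf3, a repressor that recruits CtBP, and Klf13, known for its action on a chemokine gene in T cells, varied least in their state means. Klf3 means ran from 10.85 ± 0.049 in Ent to 11.06 ± 0.13 in EAr (SD, n = 5 each), with q = 0.126 across states. Klf13 means ran from 8.87 ± 0.13 in EAr to 9.13 ± 0.14 in IBA (SD, n = 5 each), with q = 0.284. For neither gene was any pair of states called.

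**Figure D2:**
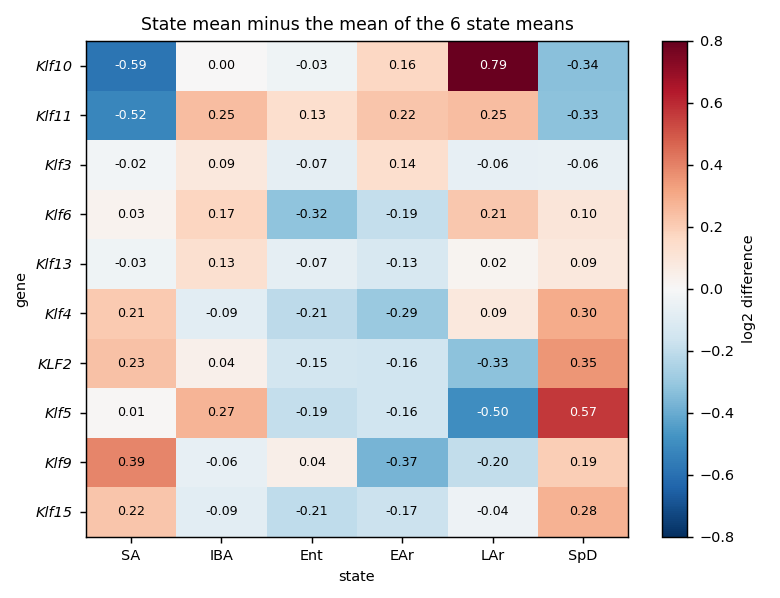
Difference of each state mean from the gene's mean over the 6 states (log2, colour and number in each cell) for the 10 KLF genes, 29 animals. By these plain means Klf10 is highest in LAr and lowest in SA, Klf11 is low in SA and SpD, and KLF2 is high in those same states. The fitted Klf10 difference of SA from SpD was 0.029 log2 (q = 0.935, limma).

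In the other pairs the study compared, no KLF was called. The pairs were SA with SpD (0 of 10, beside 0.0544% of all genes), IBA with SA (3.15%), Ent with IBA (0.746%), EAr with Ent (0.132%), LAr with EAr (0.295%) and SpD with IBA (1.25%). At an unadjusted p under 0.05 in limma these pairs held 0, 2, 1, 3, 4 and 4 of the 10 members, in the same order, beside 29.1%, 36.3%, 29.4%, 7.16%, 8.33% and 26.6% of all genes. LAr and EAr did not overlap for 3 members, Klf3, Klf6 and Klf10, beside 6.84% of all genes, and Klf3 was the one of these that was lower in LAr. IBA and SA did not overlap for 2 members, Klf10 and Klf11, beside 18.8% of all genes. Pairs with a state in common share its animals. When the states of each member were ordered by mean, no neighbouring states differed at the threshold, and the lowest q was 0.0249, for Klf11 between Ent and SpD.

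By the season contrast of averaged states, Klf10 and Klf11 were higher in hibernation and Klf15 was lower. For Klf10, LAr was the only hibernation state that differed from SA or SpD at the threshold. KLF2 was also called lower, but in the deposited values it met the floor only in SA, one of the states on the higher side, and its difference is a description. The contrast set the mean of IBA, Ent, EAr and LAr (20 animals) against that of SA and SpD (9 animals). These 4 of 10 members stand beside 9.73% of all genes called, 4.43% upward and 5.29% downward, and 3 of the 9 members other than KLF2 were called. At q under 0.05 there were 2 members higher and 4 lower, beside 16.6% and 16.8% of all genes. The median season difference of the members was -0.24 log2, and that of all genes was 0.00024.

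Klf10 in hibernation animals ran from 10.18 to 11.50 with a median of 10.58, against 9.40 to 10.84 with a median of 9.79 in active animals. The fitted season difference was 0.69 log2 (SE 0.11, 95% interval 0.47 to 0.91, q = 4.31e-05), 1.62-fold, with 20 of 20 hibernation animals above the active median in plain values. In limma, Klf10 in IBA exceeded SA by 0.31 log2 (q = 0.273), and SA differed from Ent by -0.27 log2 (q = 0.384). SpD differed from IBA by -0.34 log2 (q = 0.205) and from Ent by -0.30 log2 (q = 0.246). None of these pairs was called. Klf11 ran from 9.79 to 10.31 with a median of 10.12 in hibernation and from 9.07 to 9.998 with a median of 9.33 in active animals. Its season difference was 0.64 log2 (SE 0.082, 95% interval 0.47 to 0.81, q = 4.37e-06), 1.56-fold, again in 20 of 20. For Klf10, SpD differed from Ent by 0.081 log2 within experiment 1 and by -0.88 log2 within experiment 2, so that the direction in experiment 1 was not that of the season difference, and in experiment 2 alone the season difference was 0.91 log2 (q = 1.47e-05). For Klf11, SpD differed from Ent by -0.39 and -0.56 log2 within experiments 1 and 2. The active animals that reached the hibernation range were K3 and K9 of SpD for Klf10, both of experiment 1, and K139 of SA and K9 of SpD for Klf11.

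KLF2 ran from 6.34 to 7.02 with a median of 6.70 in hibernation and from 6.81 to 7.52 with a median of 7.10 in active animals. Its season difference was -0.44 log2 (SE 0.07, 95% interval -0.58 to -0.30, q = 5.46e-05), with 20 of 20 hibernation animals below the active median. Klf15 ran from 7.12 to 7.79 with a median of 7.46 in hibernation and from 7.55 to 8.26 with a median of 7.77 in active animals, and 19 of 20 lay below the active median. The Klf15 difference was -0.38 log2 (SE 0.08, q = 8.71e-04) and lay near the threshold. It was lost in 23 of the 29 fits that left out 1 animal, with a highest q of 0.00353 without K139.

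The other members did not pass by season. Klf4 differed by -0.38 log2 with q = 0.00104, just above the threshold, and q ran from 2.31e-04 to 0.00512 when 1 animal was left out. Klf9 differed by -0.44 log2 (SE 0.10, q = 0.00224), with 19 of 20 hibernation animals below the active median. Klf5 differed by -0.43 log2 (95% interval -0.82 to -0.049, q = 0.076), and by -0.26 log2 with q = 0.213 without K130. The intervals of Klf6, -0.33 to 0.13, Klf3, -0.05 to 0.18, and Klf13, -0.19 to 0.11, all included 0.

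**Figure D3:**
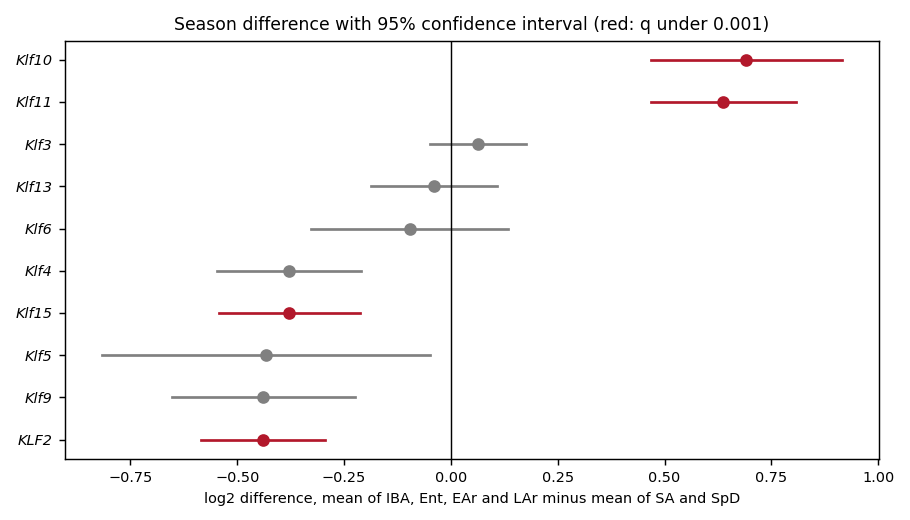
Fitted season difference (log2, horizontal axis, mean of IBA, Ent, EAr and LAr minus mean of SA and SpD) of each KLF gene with its 95% interval, in 29 animals. Red marks the 4 genes with q under 0.001, Klf10 at 0.69 and Klf11 at 0.64 to the right, and KLF2 at -0.44 and Klf15 at -0.38 to the left.

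The LAr animal K113 exceeded all 5 other LAr animals for 8 of the 10 KLFs, beside 35.6% of all genes, and lay within them for Klf9 and Klf15. It lay below them for none, beside 37.2% of all genes. Its excess over their mean was 3.61 log2 for Klf5, 1.47 for Klf4, 1.27 for Klf6, 0.88 for Klf10, 0.61 for Klf11, 0.52 for KLF2, 0.45 for Klf13 and 0.33 for Klf3. For 3 members it lay over 1 log2 above the highest other LAr animal, as did 2.69% of all genes. The SA animal K137 exceeded all 4 other SA animals for 4 members, beside 33.9% of all genes, and its excess was 2.06 log2 for Klf5, 0.73 for KLF2, 0.61 for Klf4 and 0.57 for Klf13. It lay below them for 2 members, Klf9 and Klf15, beside 29.5% of all genes, with differences of -0.54 and -0.28 log2 from their mean. Both shares for K137 are near those of all genes.

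**Figure D4:**
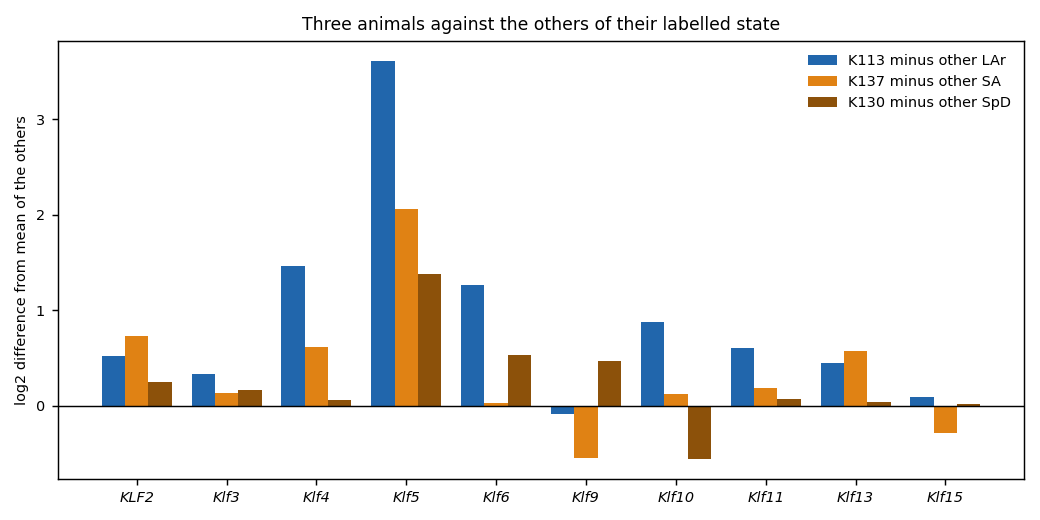
Difference of K113 from the mean of the other LAr animals, of K137 from that of the other SA animals and of K130 from that of the other SpD animals (log2) for each of the 10 KLF genes. Klf5 is the farthest in K113 and K137, at 3.61 and 2.06.

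The SpD animal K130 was kept in the tests. It exceeded the other SpD animals for 4 members, Klf3, Klf5, Klf6 and Klf9, beside 32.7% of all genes, and was below them for none, beside 28.4%. The share above is near that of all genes. Klf5 in K130 was 1.38 log2 above their mean. The endothelial marker mean was 11.66 in K137, 11.23 in K113 and 11.85 in K130, each the highest of its state. The proximal tubule marker mean was 14.16 in K137, 13.60 in K113 and 13.40 in K130, each the lowest of its state. The part of tissue makeup in these animals' values was not tested.

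Of 17 other KLF and SP family genes, 8 were in the table. Across states limma called none of them, beside 9.34% of all genes. By season it called 1, beside 9.73% of all genes, namely Sp3, a GC-box factor, at 0.27 log2 (q = 1.00e-04). Genes outside the F-test rule, such as this one, were named after their values were seen. At an unadjusted p under 0.05 there were 3 of the 8 by season, beside 43.4% of all genes. Of 13 coregulator genes none was called across states, beside 9.34% of all genes, and 4 had q under 0.05, beside 46.1%. By season 1 of the 13 was called, beside 9.73% of all genes. It was Sin3a, the corepressor scaffold, at 0.19 log2 (q = 3.96e-04), a call lost in 3 of the 29 fits that left out 1 animal.

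Among 14 upstream regulators 1 was called across states, beside 9.34% of all genes, namely Srf, the serum response factor. By season 1 of the 14 was called lower, again Srf, beside 5.29% of all genes, and 1 higher, beside 4.43%. Srf was lower in hibernation (difference -0.30 log2, q = 1.37e-05) and lower in Ent than in IBA (difference -0.43 log2, q = 4.11e-04). The gene called higher was Smad2, which carries TGFβ signals, at 0.22 log2 (q = 6.05e-04), a call lost in 10 of the 29 fits that left out 1 animal. Of 6 ubiquitin ligases for KLF proteins none was called across states or by season, beside 9.34% and 9.73% of all genes. By season 3 had an unadjusted p under 0.05, beside the same 43.4% of all genes. Wwp1, the ligase known for Klf5, was lower in IBA than in SA (difference -0.53 log2, q = 4.26e-04).

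Of 11 target genes known for one or more KLFs, 2 were called across states, beside 9.34% of all genes. They were Gpt, alanine aminotransferase, and Bcat2, the mitochondrial branched-chain aminotransferase. By season 3 fell, beside 5.29% of all genes. These were Gpt at -0.73 log2 (q = 5.53e-08), Bcat2 at -0.60 log2 (q = 1.46e-04) and the proline dehydrogenase gene Prodh at -0.71 log2 (q = 1.85e-04). All 3 are amino acid enzymes on the list as targets of Klf15. In the other direction 1 target rose, beside 4.43% of all genes, the growth factor gene Pdgfa, at 0.35 log2 (q = 8.78e-04). The list's median season difference was -0.41 log2. K130 was the highest SpD animal for Bcat2 and Prodh, by 1.02 and 1.25 log2 over the others' mean, and without it their season differences were -0.48 log2 (q = 7.71e-05) and -0.57 log2 (q = 1.07e-04). Pdgfa was not called in 20 of the 29 fits that left out 1 animal, with a highest q of 0.00443 without K139. No test of any list was made. Median season differences of the other lists were 0.10 log2 for the further KLF and SP family genes, 0.038 for coregulators, -0.0023 for upstream regulators, -0.053 for ubiquitin ligases and -0.029 for glucocorticoid-induced genes, beside 0.00024 for all genes.

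Of 7 glucocorticoid-induced genes 1 was called across states, beside 9.34% of all genes, namely Dusp1, a MAP kinase phosphatase. It was higher in LAr than in EAr by 1.47 log2 (q = 3.21e-04) and lower in IBA than in LAr (difference -1.39 log2, q = 7.43e-04). By season 1 of the 7 fell, beside 5.29% of all genes, namely Tsc22d3, encoding the leucine zipper GILZ, at -0.81 log2 (q = 6.27e-04). K130 lay 1.84 log2 above the mean of the other SpD animals for Tsc22d3, and without it the difference was -0.60 log2 (q = 1.03e-04), whereas q was 0.00326 without K139.

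The genes whose levels were most like each member were ranked by Pearson r over the 29 animals, as a description with no test, and the points share state, experiment and tissue piece. For Klf10 they were Bhlhe40 (r = 0.89), HIST1H1E (0.87) and Ces4a (0.86). For KLF2 they were CYP4B1 (0.92), Adcy4 (0.90) and Hlx (0.89), and for Klf5 Akap12 (0.94), Crispld2 (0.93) and Tinagl1 (0.92). For Klf11 Rasl10a led at 0.88, for Klf6 Cebpd at 0.83, for Klf13 Siah2 at 0.82, for Klf9 DUSP7 at 0.80, for Klf3 Otud7b at 0.80, for Klf15 Traf4 at 0.79 and for Klf4 Epas1 at 0.76. Among the members themselves, r was 0.75 for KLF2 with Klf5, 0.73 for Klf10 with Klf11, 0.72 for Klf9 with Klf15 and -0.70 for KLF2 with Klf10.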

How the data were processed

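The authors sequenced poly(A) RNA in 2 experiments (9 and 22 of the animals analysed here, with different library kits and sequencers), used cutadapt to trim reads and hisat2 to set aside mitochondrial ones, quantified transcripts with Salmon against the squirrel assembly HiC_Itri_2, summarized them by gene, kept genes with an rlog of at least 7 in at least 4 animals of a state, and removed the effect of experiment with limma. Versions of these tools are not given in the sources used here. The deposited values are log2 values (rlog from DESeq2), so no counts or depths were analysed here and a count test could not be run.

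From these values the differences were computed with limma 3.58.1 in R 4.3.3, with terms for state, sex and experiment and an intensity trend in the variance, in 29 animals. Each comparison was adjusted over all 12863 genes. Because the values were already corrected for experiment, the fit without the term for experiment may understate the residual spread. Each sample is 1 animal, and samples were grouped by their labelled hibernation state. The fits were tested on simulated data. As alternatives the fit was repeated with K113 and K137 added (31 animals), leaving out the experiment, sex or trend term, under a robust prior or weights per animal, within experiment 2, for genes averaging 8 or more, after centering each animal on its median, at other q limits, on each pair alone, and with single animals omitted one after another.

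The members and lists were chosen with earlier results of these data known. All members are named. Of other lists the genes called across states are named, and any further gene is said to have been chosen after its values were seen. For each member the 3 genes of highest Pearson r are found, of which the first or all are named. A symbol with several rows was taken by its row of highest mean. Promoter and protein sequences were not analysed here.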

Additional observations from a re-analysis of the deposited data

Results flagged for a closer look

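A sample was set against the rest of its state by Dixon's test, in 80 combinations of gene and state with and without the animals shown apart. In these 7 stood out. Chance gives about 1 in 20, but that share does not apply to sets holding K113 or K137, which the study had left out as outliers. Among the tested animals alone only K112 and K1 stood out. K113 stood far above the other LAr animals for Klf3 at 11.19 (nearest 10.93), Klf4 at 10.12 (nearest 8.75), Klf5 at 10.79 (nearest 7.47) and Klf6 at 10.56 (nearest 9.54). Among the 5 tested LAr animals K112 stood above the others for Klf5 at 7.47 (nearest 7.12). SA animal K139 stood above the other SA animals for Klf9 at 13.23 (nearest 12.32) when K137 was included. IBA animal K1 stood above the other IBA animals for KLF2 at 7.02 (nearest 6.86).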

How the results depend on the processing

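No paired analysis was possible because each replicate number is an animal's own number and the states share none. Across states 3 members were called, and 5 and 6 were at q under 0.01 and 0.05. Klf11 in IBA against SA gave 1 call without the term for experiment, with animal weights and at q under 0.01 or 0.05. Klf11 in SpD against IBA gave 1 call with animal weights and at q under 0.01 or 0.05. For IBA against LAr the 1 call became 0 without the term for experiment, in experiment 2 only and with only the 2 groups compared, and became 2 at q under 0.05. By season 4 became 2 among genes with a mean of at least 8, since that filter removes KLF2 and Klf15. Leaving out 1 animal gave 2 to 4 calls across states (2 without SpD animal K130 or K84, 4 without IBA animal K1), 3 to 5 by season, and 0 to 1 in IBA against SA, IBA against LAr and SpD against IBA, and 0 in the other pairs. Klf10 and Klf11 were called across states and by season in all 29 such fits. KLF2 was called by season in all of them, but it met the floor only in SA, on the higher side of that contrast. Its calls therefore remain a description. The Klf15 season call was also lost with all 31 animals (q = 0.00127), with animal weights (q = 0.0034), in experiment 2 only (q = 0.0475) and under median centering (q = 0.00106). No called difference changed sign. The cause of these changes was not tested. Depth is unknown, and rlog understates differences of low genes such as KLF2.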
